A study of Homo sapiens with 18 samples.

Results

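Transcript levels of 10 genes of the transforming growth factor beta (TGF-beta) pathway were followed in 18 RNA libraries made after loss of SMARCAL1. The genes were PMEPA1, TGFB1, TGFB2, TGFBR1, TGFBR2, SMAD3, SMAD7, SKIL, LTBP1 and INHBA, taken by symbol, and all 10 of 10 were found among the 57120 genes of the TruSeq table and the 44267 genes of the PLATE-seq table. SMARCAL1 encodes a DNA-rewinding enzyme that protects replication forks. MDA-MB-436 is a breast adenocarcinoma line of the triple-negative class. Per the labels, 6 TruSeq libraries of total RNA came from MDA-MB-436 controls and from SMARCAL1 knockout clone 1, with 3 biological replicates each. The other 12 libraries were made by PLATE-seq, a pooled multi-well assay of messenger RNA, from a control, SMARCAL1 knockout clones 1, 2 and 3, cells given a control siRNA and cells given siRNA against SMARCAL1, with 2 biological replicates each. No group received TGF-beta or an inhibitor of its receptors according to the labels, and all cells grew in medium with bovine serum. Each knockout group is 1 clone, and the labels name no clone for the controls. No source used here says whether biological replicates came from separate cultures on separate days, so p-values measure the spread between these libraries only.

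TGF-beta ligands are secreted in a latent form, held in the matrix by latent TGF-beta binding proteins such as LTBP1 and released by integrins and other factors. The active dimer brings together the type II receptor TGFBR2 and the type I receptor TGFBR1, which phosphorylates SMAD2 and SMAD3 so that they enter the nucleus with SMAD4. Activins, of which INHBA encodes the beta A subunit, signal through their own receptors to the same SMADs. Among the genes that the SMADs switch on are brakes on the pathway: SMAD7 blocks the receptor, SKIL represses SMAD complexes, and PMEPA1 binds SMAD2 and SMAD3 away from the receptor. In breast cancer cells the pathway is known for driving epithelial to mesenchymal transition.

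TruSeq libraries held 10257584 to 19270648 counts and PLATE-seq libraries 807861 to 3068887, so 3 counts, taken as the floor for a gene with none, correspond to 0.156 to 0.292 and 0.978 to 3.71 CPM, the unit used below for a count scaled to the normalised library size. The PLATE-seq samples carry other line names, MDA-MB-437 upwards, in some label fields, while their titles name MDA-MB-436. SMARCAL1 transcript was 14.7 ± 1.21 CPM (SD, n = 3) in TruSeq controls and 14.0 ± 0.696 CPM (SD, n = 3) in clone 1. PLATE-seq gave 0 and 3 SMARCAL1 counts in the control, 3 and 6 in clone 1, 8 and 3 in clone 2, 16 and 44 in clone 3, 7 and 8 with control siRNA and 0 and 0 with siRNA against SMARCAL1. The message was therefore lower in both siRNA-treated libraries than in their controls and was not lower in any PLATE-seq clone group than in its control. Transcript counts do not measure the protein, so the labels of the clones are not checked by them. In such bulk libraries fewer cells of a type and less RNA per cell cannot be told apart. The mesenchymal marker VIM was abundant in both assays, at 954 to 1392 CPM in TruSeq and 188 to 471 CPM in PLATE-seq. Some of the keratins listed matched between assays and others did not. The ranges of KRT17 overlapped, and KRT14, KRT16 and KRT19 were at 1.78 CPM or below in both. KRT8 was higher in TruSeq, at 514 to 870 CPM against 8.77 to 32.2 CPM in PLATE-seq. KRT18 was too, at 555 to 818 CPM against 72.2 to 159 CPM. KRT5, KRT6A and E-cadherin (CDH1) went the other way. KRT5 was 0 to 0.397 CPM in TruSeq and 9.28 to 46.5 CPM in PLATE-seq, and CDH1 was 0.0662 to 0.768 CPM in TruSeq and 5.53 to 29.9 CPM in PLATE-seq, in every group of that assay. The part of these differences in the PLATE-seq values of the 10 genes was not tested. Synthetic spike-in RNAs split the PLATE-seq libraries by replicate number, with 351 to 632 counts in the 6 libraries numbered 1 and 3 to 17 in the 6 numbered 2. The TruSeq libraries split by the number of genes detected, at 36042 to 39068 in control 1, control 2 and clone 1 replicate 1 and at 28621 to 30653 in the other 3.

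In the TruSeq libraries clone 1 had higher levels of 2 ligand genes, 1 receptor gene and 1 feedback gene. INHBA, PMEPA1, TGFBR2 and TGFB2 rose, which is 4 of the 10 genes, and none fell, where 3.96% of all 17371 genes tested rose and 2.31% fell (edgeR quasi-likelihood test, Benjamini-Hochberg adjusted p under 0.05). The median log2 fold change of the 10 was 0.09, against -0.0044 over all genes tested. The 10 genes were chosen with earlier results of these data known, so these shares are not a test of the set. The control and clone 1 libraries did not overlap for 5 of the 10, those 4 and SMAD3, where 26.3% of all genes tested did not overlap.

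**Figure D1:**
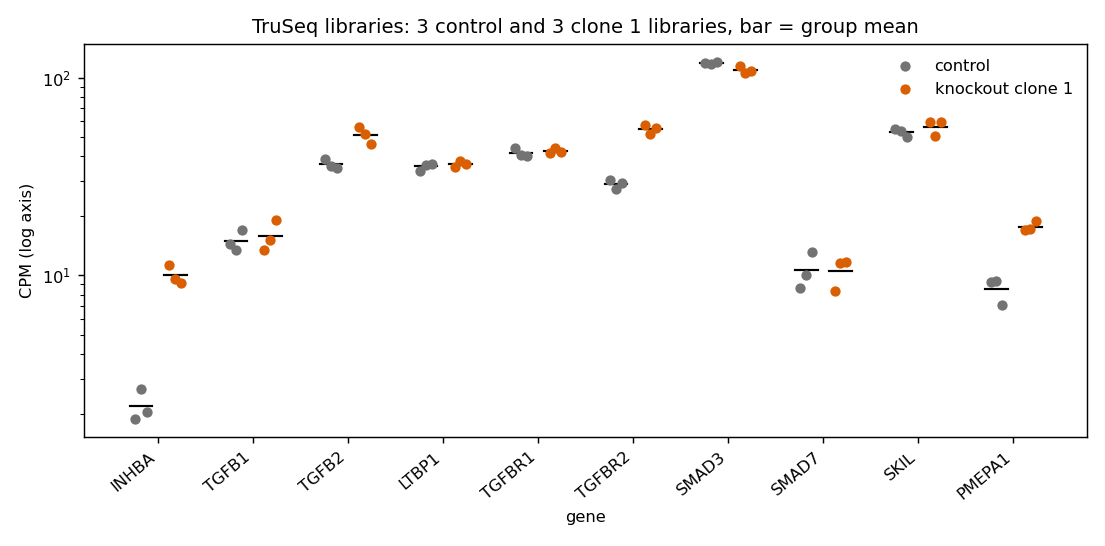
CPM (log axis) of the 10 genes in the 3 control (grey) and 3 clone 1 (orange) TruSeq libraries, with a bar at each group mean. The 2 sets of points are apart and higher in clone 1 for INHBA, TGFB2, TGFBR2 and PMEPA1, and close together or mixed for the other 6.

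Among the ligands, INHBA (chromosome 7, 41667168 to 41705834, minus strand, GRCh38) changed most. It was at 1.88, 2.66 and 2.04 CPM in the controls and at 11.3, 9.63 and 9.20 CPM in clone 1. Each clone 1 library was above each control library, on both sides of the split by genes detected. The log2 fold change was 2.19 (SE 0.18, edgeR adjusted p = 0.000449), from 92 counts summed over the controls to 427 over clone 1. TGFB2 (chromosome 1, 218346235 to 218444619, plus strand), the ligand that needs the coreceptor betaglycan to bind its receptor well, was at 38.7, 35.8 and 35.0 CPM in the controls and at 56.4, 51.6 and 46.1 CPM in clone 1. Its log2 fold change was 0.49 (SE 0.09, edgeR adjusted p = 0.0187), and the call was lost without control replicate 2 (adjusted p = 0.107) or without clone 1 replicate 2 (adjusted p = 0.0796). A same-strand transcript, TGFB2-OT1, shares 1371 bases, or 26.6%, of the TGFB2 exons and was at 9.47 ± 0.890 CPM (SD, n = 3) in controls and 11.5 ± 1.27 CPM (SD, n = 3) in clone 1, so reads of the shared bases could have been assigned to either gene or dropped. TGFB1, the ligand most studied in tumours (chromosome 19, 41301587 to 41353911, minus strand), was at 14.9 ± 1.77 CPM (SD, n = 3) in controls and 15.8 ± 2.86 CPM (SD, n = 3) in clone 1. Its log2 fold change of 0.08 (SE 0.15) did not pass the test and changed sign without clone 1 replicate 3. HNRNPUL1, on the opposite strand, shares 215 bases, or 6.64%, of the TGFB1 exons. It had 2113 to 3688 counts in TruSeq and 445 to 1235 in PLATE-seq libraries, where TGFB1 had 145 to 307 and 20 to 106. With the strand setting of the counting not given, reads of these shared bases could likewise have been assigned to either gene or dropped. LTBP1 (chromosome 2, 32946972 to 33399509, plus strand) was at 35.5 ± 1.51 and 36.4 ± 1.29 CPM (SD, n = 3 each), with a log2 fold change of 0.04 (SE 0.08).

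The type II receptor gene rose and the type I receptor gene did not pass the test. TGFBR2 (chromosome 3, 30606502 to 30694142, plus strand) was at 30.3, 27.2 and 29.2 CPM in the controls and at 57.8, 51.6 and 55.3 CPM in clone 1. The groups lie far apart, with a log2 fold change of 0.92 (SE 0.08, edgeR adjusted p = 0.000688). TGFBR1 (chromosome 9, 99104038 to 99154192, plus strand) was at 43.9, 40.4 and 40.2 CPM in the controls and at 41.5, 44.2 and 41.9 CPM in clone 1, and the groups overlap. Its log2 fold change was 0.04 (SE 0.08). In controls the receptor pair was at similar levels per length, 6.15 ± 0.334 CPM per kilobase of exon for TGFBR2 and 6.07 ± 0.298 for TGFBR1 (SD, n = 3). In clone 1 TGFBR2 was at 11.7 ± 0.663 CPM per kilobase and TGFBR1 at 6.22 ± 0.212 (SD, n = 3).

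Of the SMAD gene, the feedback genes and the SMAD repressor, PMEPA1 alone passed the test. PMEPA1 (chromosome 20, 57648392 to 57711536, minus strand) was at 9.22, 9.36 and 7.05 CPM in the controls and at 16.9, 17.1 and 18.7 CPM in clone 1. Every clone 1 library was above every control, with a log2 fold change of 1.05 (SE 0.14, edgeR adjusted p = 0.00403). SMAD3 (chromosome 15, 67063763 to 67195195, plus strand), the transducer, was the most abundant of the 10 per length, at 13.0 ± 0.200 CPM per kilobase (SD, n = 3) in controls. Its clone 1 libraries lay just below the controls, but the log2 fold change of -0.11 (SE 0.06) did not pass (edgeR adjusted p = 0.384). SMAD7 (chromosome 18, 48919853 to 48952052, minus strand), the inhibitory SMAD and a direct target, was at 8.62, 10.0 and 13.2 CPM in the controls and at 8.34, 11.6 and 11.7 CPM in clone 1. These groups overlap fully, with a log2 fold change of -0.01 (SE 0.19). SKIL (chromosome 3, 170357678 to 170396835, plus strand) was at 52.8 ± 2.66 CPM in controls and 56.5 ± 5.12 CPM in clone 1 (SD, n = 3 each), a log2 fold change of 0.10 (SE 0.09). Differences between these genes in their response were not tested.

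INHBA, the gene with the largest change of the 10, had the lowest control level per length, 0.264 ± 0.0501 CPM per kilobase (SD, n = 3), and PMEPA1 the next lowest, 1.52 ± 0.231. SMAD7 followed at 2.11 ± 0.462. Next came TGFB1 at 4.61 ± 0.545 and LTBP1 at 4.85 ± 0.206, neighbours that do not differ beyond their spread. TGFBR1 and TGFBR2 do not differ beyond their spread either, and the libraries of SKIL, at 6.78 ± 0.341, overlap those of TGFBR2 below and of TGFB2, at 7.08 ± 0.376, above. Both receptors lay below TGFB2 in every control library, and SMAD3 stood above them all. These levels use GENCODE 29 exon lengths.

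Promoter sequences are shown for the 4 genes that rose in the TruSeq libraries, so that the letters around their starts can be read beside their changes. Each window is 300 bases of RefSeq (GRCh38.p14), from 250 before to 50 after an annotated start, printed on the strand of the gene, 5′ to 3′. Capitals mark a match to the SMAD element CAGAC or its reverse complement GTCTG, the AP-1 element TGACTCA or TGAGTCA, or the TATA element TATAAA on the printed strand or its reverse complement TTTATA on the other. INHBA has 1 window, at chr7:41703041-41703340 on the minus strand, with a TATA element and a SMAD element after the start. TGFB2 has 1, at chr1:218345086-218345385 on the plus strand, with 2 SMAD elements and a TATA element. TGFBR2 has 2, of which the second, at chr3:30606351-30606650 on the plus strand, holds an AP-1 element. PMEPA1 has 4, of which the third, at chr20:57709966-57710265 on the minus strand, holds 2 SMAD elements in opposite orientation near the start. The start of NKILA, described with PMEPA1 below, lies inside that window.
INHBA window 1: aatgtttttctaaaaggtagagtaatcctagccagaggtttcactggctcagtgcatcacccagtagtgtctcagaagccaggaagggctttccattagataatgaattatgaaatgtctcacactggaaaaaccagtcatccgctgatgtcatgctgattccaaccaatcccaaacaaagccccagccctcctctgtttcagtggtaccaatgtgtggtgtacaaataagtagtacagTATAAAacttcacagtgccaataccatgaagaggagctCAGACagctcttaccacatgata
TGFB2 window 1: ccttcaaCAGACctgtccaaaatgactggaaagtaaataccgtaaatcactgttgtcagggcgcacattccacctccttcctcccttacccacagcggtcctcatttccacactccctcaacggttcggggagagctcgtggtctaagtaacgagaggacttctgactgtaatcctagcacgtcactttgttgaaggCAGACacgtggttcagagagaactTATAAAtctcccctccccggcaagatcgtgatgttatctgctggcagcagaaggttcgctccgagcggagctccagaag
TGFBR2 window 2: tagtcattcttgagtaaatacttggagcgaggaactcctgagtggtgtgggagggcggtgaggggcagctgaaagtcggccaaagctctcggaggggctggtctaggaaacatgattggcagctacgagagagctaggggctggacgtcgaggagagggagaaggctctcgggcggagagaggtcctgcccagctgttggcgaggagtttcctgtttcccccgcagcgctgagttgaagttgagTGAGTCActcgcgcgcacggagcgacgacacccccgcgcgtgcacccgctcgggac
PMEPA1 window 3: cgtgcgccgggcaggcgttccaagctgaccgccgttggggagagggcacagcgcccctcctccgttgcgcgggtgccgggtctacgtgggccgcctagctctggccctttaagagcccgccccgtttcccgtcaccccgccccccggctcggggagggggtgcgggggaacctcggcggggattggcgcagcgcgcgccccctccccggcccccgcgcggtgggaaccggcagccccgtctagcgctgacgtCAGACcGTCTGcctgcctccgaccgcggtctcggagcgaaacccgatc

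The SMAD element was in at least 1 window of 8 of the 10 genes, the exceptions being TGFB1 and TGFBR2, and in 18 of their 29 windows (62.1%), beside 45.3% of all 35116 windows. Genes with more windows have more chances of a match. Windows of a gene can also overlap, so that the same match is counted again, as in TGFBR1 windows 1 and 6. The AP-1 element was in 2 of the 29 windows, 1 each of TGFBR2 and SMAD3, beside 4.95% of all windows. The TATA element was in 1 window each of TGFB2, INHBA and SMAD7, beside 11.5% of all windows. The SMAD palindrome GTCTAGAC was in none of the 29 windows and in 0.202% of all. A match describes letters in the window and shows no binding.

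In the PLATE-seq libraries PMEPA1 was higher than the control in all 3 clones and passed the test in clone 3. Of the 10 genes, 6 passed the filter on low counts, namely PMEPA1, TGFB1, TGFBR1, SMAD3, SKIL and INHBA. In clone 3, 1 of the 6 passed, PMEPA1, where 0.663% of all 8595 genes tested were called. For the mean of the clones PMEPA1 passed too, where 0.198% were called. None of the 6 passed in clone 1, where 0% of all genes were called, or in clone 2, where 0.0349% were called. At an unadjusted p under 0.05 the edgeR test marked 1 of the 6 and 704 of all genes in clone 1, and 2 of the 6 and 830 of all genes in clone 2. The clones share the same 2 control libraries, so their changes are not independent of one another.

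**Figure D2:**
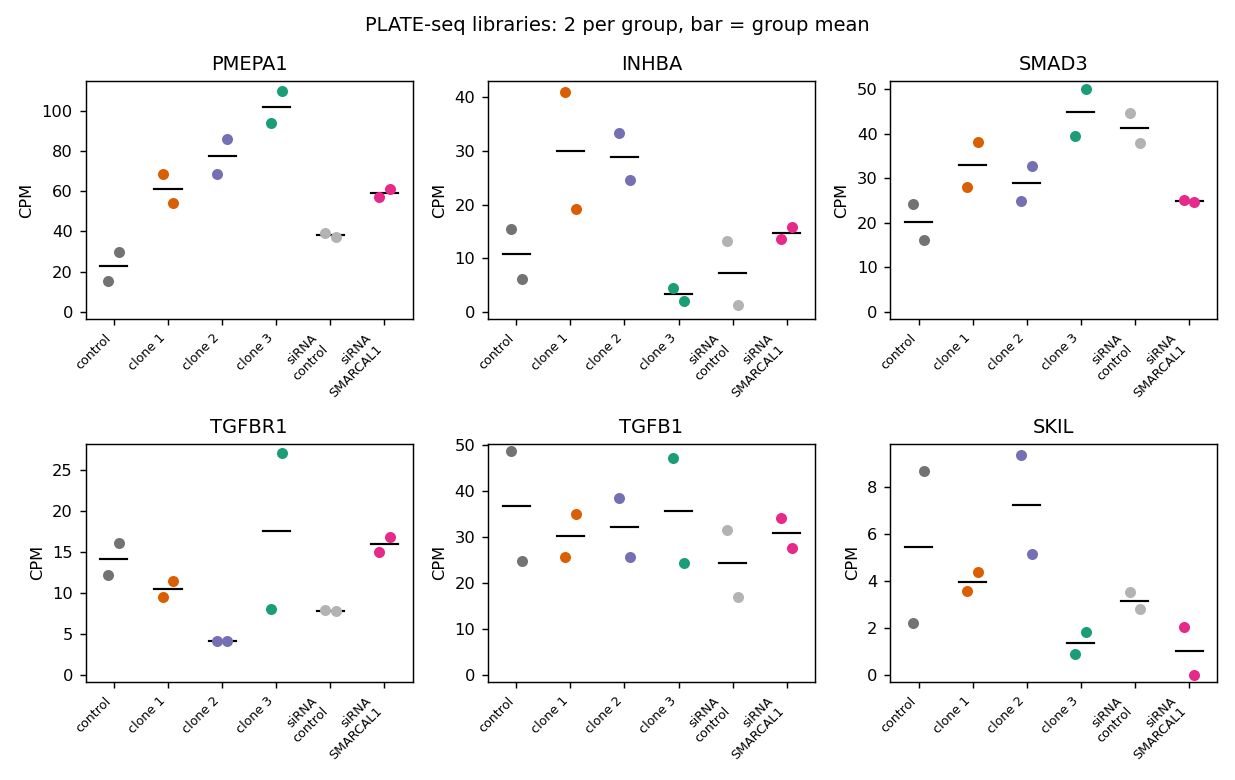
CPM of the 6 genes tested in the 12 PLATE-seq libraries, 2 points per group with a bar at the mean; the vertical axes differ between panels and include 0. PMEPA1 is above the control in every clone library, INHBA is high in clones 1 and 2 and low in clone 3, and the TGFB1 points of each clone overlap those of the control.

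PMEPA1 was at 15.5 and 29.8 CPM in the control, 68.3 and 54.1 in clone 1, 68.6 and 86.1 in clone 2 and 93.8 and 109.9 in clone 3. No clone library overlapped the control, where 39.2%, 38.3% and 42% of all genes tested did not overlap in clones 1, 2 and 3, and the order of clone above control held among the libraries numbered 1 and among those numbered 2. The log2 fold changes were 1.44 (SE 0.39, edgeR adjusted p = 0.246) in clone 1, 1.78 (SE 0.39, adjusted p = 0.0823) in clone 2 and 2.18 (SE 0.38, adjusted p = 0.00688) in clone 3. DESeq2 called clone 2 as well (adjusted p = 0.0183), and the differences among the clones did not pass (edgeR adjusted p = 0.572). The call in clone 3 was lost without control replicate 1 (adjusted p = 0.143) or without clone 3 replicate 2 (adjusted p = 0.0527) and in a fit of the control and clone 3 libraries alone (adjusted p = 0.0930), and measured from the siRNA control instead the log2 fold change was 1.41 (adjusted p = 0.123). The siRNA control itself was at 39.4 and 37.2 CPM, above both controls of the clones, a log2 difference of 0.77 (SE 0.40, edgeR adjusted p = 0.661). Between these control groups 0.0116% of all genes tested were called and 36.6% did not overlap. The call for the mean of the clones was lost without control replicate 1 (adjusted p = 0.386) or 2 (0.0628), and from the siRNA control (0.333).

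With siRNA against SMARCAL1, PMEPA1 was at 57.2 and 61.3 CPM, above both siRNA controls. The log2 fold change was 0.63 (SE 0.36) and did not pass (edgeR adjusted p = 0.839). Among all genes tested 0% passed in the siRNA comparison and 37.4% had groups that did not overlap. The mean knockout effect on PMEPA1 exceeded the siRNA effect by 1.17 on the log2 scale (SE 0.49), and this difference did not pass either (edgeR adjusted p = 0.578).

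A second transcript of the PMEPA1 locus stood out in clone 3. NKILA (chromosome 20, 57710183 to 57712780, plus strand) is a long noncoding RNA transcribed from the strand opposite to PMEPA1 and known as an inhibitor of NF-kappa-B signalling. It was singled out after its values were seen, because its exons share 343 bases, or 6.10%, of the PMEPA1 exons. NKILA had 0 and 4 counts in the control, 3 and 3 in clone 1, 6 and 8 in clone 2, 144 and 170 in clone 3, 0 and 0 with control siRNA and 2 and 10 with siRNA against SMARCAL1. Clone 3 was thus at 64.0 and 51.6 CPM and every other PLATE-seq library at 9.89 CPM or below. The log2 fold change in clone 3 was 4.56 (SE 0.90, edgeR adjusted p = 0.0249), and the 3 clones differed (adjusted p = 0.00355). The clone 3 call was lost without control replicate 1 (adjusted p = 0.161), clone 3 replicate 1 (0.0586) or clone 3 replicate 2 (0.116), and in a fit of the control and clone 3 libraries alone (0.0576), and the difference among clones was lost without clone 3 replicate 2 (0.0549). In TruSeq clone 1, where PMEPA1 rose, NKILA was at 0.742, 0.754 and 0.662 CPM against 1.19, 2.02 and 0.716 in controls, with a log2 fold change of -0.83 (SE 0.47, edgeR adjusted p = 0.365). The strand setting of the counting is not given in the sources used here, so reads of the shared bases cannot be told apart between PMEPA1 and NKILA.

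**Figure D3:**
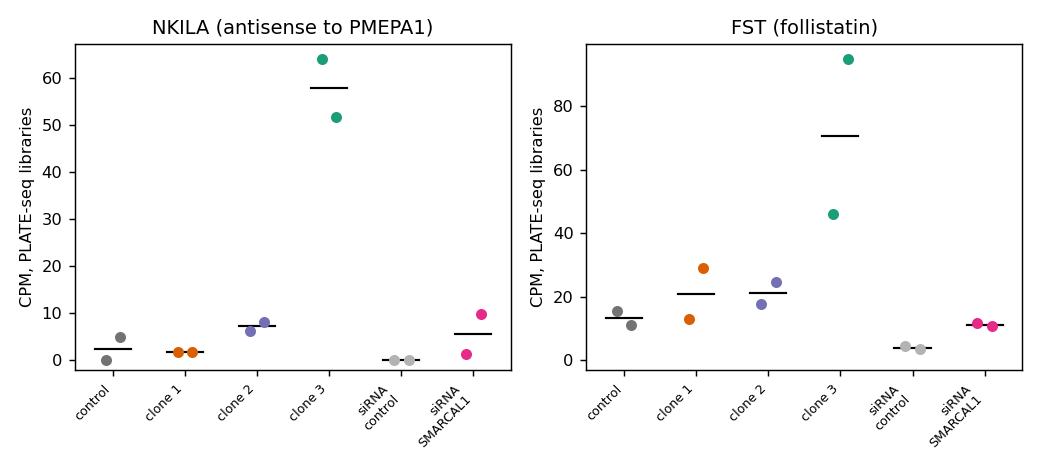
CPM of NKILA (left) and FST (right) in the 12 PLATE-seq libraries, 2 points per group with a bar at the mean, axes including 0. Both clone 3 libraries lie above all others for NKILA, at 64.0 and 51.6 CPM, and for FST, at 46.2 and 95.04 CPM.

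INHBA lay on different sides of the control in different clones. It was at 15.5 and 6.20 CPM in the control, 41.0 and 19.1 in clone 1, 33.3 and 24.6 in clone 2 and 4.44 and 2.13 in clone 3. Clones 1 and 2 lay above the control and clone 3 below it, among libraries of either number. The log2 fold changes against control were 1.45 (SE 0.72, edgeR adjusted p = 0.632), 1.39 (SE 0.73, adjusted p = 0.562) and -1.75 (SE 0.80, adjusted p = 0.379), none of which passed. The difference among the 3 clones fell just short (edgeR adjusted p = 0.0554, where 0.71% of all genes tested were called) and passed with DESeq2 (adjusted p = 0.0129). In pairwise tests added after the values were seen, clone 1 exceeded clone 3 by 3.20 on the log2 scale (SE 0.74, edgeR adjusted p = 0.0490, 0.465% of all genes called) and clone 2 exceeded clone 3 by 3.15 (SE 0.75, adjusted p = 0.0457, 0.756% called). These calls remained in 8 and 6 of 12 omissions of 1 library, and the adjusted p reached 0.521 and 0.437 without clone 3 replicate 2. Clone 1 is the clone of the TruSeq libraries, where INHBA rose by 2.19. With siRNA against SMARCAL1, INHBA was at 13.6 and 15.8 CPM against 13.1 and 1.40 in its controls, a log2 fold change of 1.06 (SE 0.76, edgeR adjusted p = 0.889).

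FST encodes follistatin, the secreted protein that binds and neutralizes activins, the dimers made from INHBA. It was the 1 gene of the wider pathway that passed the test in any PLATE-seq comparison with a control. FST was at 15.5 and 11.2 CPM in the control, 13.1 and 28.9 in clone 1, 17.7 and 24.6 in clone 2 and 46.2 and 95.04 in clone 3. Both clone 3 libraries were above all others, with a log2 fold change of 2.40 (SE 0.54, edgeR adjusted p = 0.0377). In clone 3 the activin subunit was therefore at its lowest level of the PLATE-seq clones and its antagonist at its highest. The FST call was lost without either control library (adjusted p = 0.159 and 0.233) or without clone 3 replicate 2 (0.571), and in a fit of the control and clone 3 libraries alone (0.108), and the difference among clones did not pass in edgeR (0.0729) and did in DESeq2 (0.0435). In TruSeq clone 1 FST was at 13.8 ± 0.855 CPM against 10.2 ± 0.683 in controls (SD, n = 3), a log2 fold change of 0.44 (SE 0.11, edgeR adjusted p = 0.0563).

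SMAD3 lay above its control in all 3 clones and below it with siRNA, and TGFBR1 below its control in clones 1 and 2 and above it with siRNA. None of these differences passed the test. SMAD3 was at 24.3 and 16.1 CPM in the control, 27.9 and 38.2 in clone 1, 24.96 and 32.8 in clone 2 and 39.5 and 50.1 in clone 3, above the control in all 6 clone libraries. With siRNA it was at 25.2 and 24.7 CPM, below the siRNA controls at 44.7 and 37.9. The log2 fold changes were 0.70 (SE 0.44), 0.51 (SE 0.46) and 1.14 (SE 0.44) in clones 1 to 3 and -0.72 (SE 0.42) with siRNA, and none passed (lowest edgeR adjusted p = 0.272, in clone 3). The siRNA control group was above the control of the clones by 1.02 (SE 0.45), so against the siRNA control the changes in clones 1 and 2 turned to -0.32 and -0.51. TGFBR1 was at 12.2 and 16.1 CPM in the control, 9.51 and 11.5 in clone 1, 4.16 and 4.10 in clone 2 and 7.999 and 27.0 in clone 3, where the libraries lie on either side of the control. Clone 2 had 4 counts in each library. The siRNA-treated libraries were at 15.0 and 16.8 CPM and their controls at 7.89 and 7.72. The log2 fold change was -1.75 in clone 2 (SE 0.79, edgeR adjusted p = 0.479) and 1.01 with siRNA (SE 0.70, adjusted p = 0.885). Tests of each clone effect against the siRNA effect, added after the values were seen, called none of the 6 genes and 0%, 0% and 0.0931% of all genes for clones 1 to 3.

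TGFB1 and SKIL passed no test in PLATE-seq. TGFB1 was at 48.7 and 24.8 CPM in the control and between 24.3 and 47.1 CPM in the 6 clone libraries, and its log2 fold changes ran from -0.28 (SE 0.48) in clone 1 to -0.06 (SE 0.47) in clone 3. With siRNA it was at 34.02 and 27.7 CPM against 31.6 and 16.8, a log2 fold change of 0.37 (SE 0.49). SKIL was near the floor, with 9 counts summed over the control, 14 in clone 1, 14 in clone 2 and 8 in clone 3, and with 8 and 3 in the siRNA control and siRNA groups. Its libraries did not overlap the control in clone 3, at 0.889 and 1.82 CPM against 2.21 and 8.68, a ratio of 0.274 (exact 95% interval 0.0921 to 0.801, counting error only). With siRNA they were at 2.04 and 0 CPM against 3.51 and 2.81, a ratio of 0.388 (0.0663 to 1.62). The test across libraries did not pass for either, with standard errors of 1.31 to 1.52 on the log2 scale against the matching controls.

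**Figure D4:**
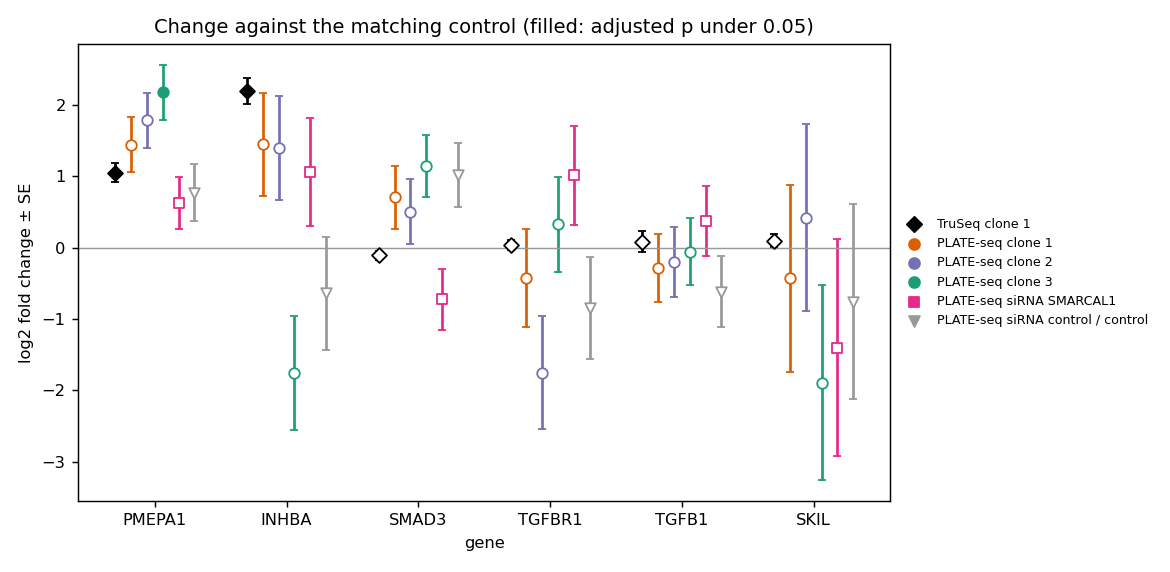
Log2 fold change ± SE of the 6 genes tested in both assays, in TruSeq clone 1 and in the PLATE-seq comparisons; filled symbols passed edgeR adjusted p 0.05. PMEPA1 passed in TruSeq clone 1 and PLATE-seq clone 3 and INHBA in TruSeq clone 1, and the grey triangles show how far the control groups of the PLATE-seq assay differ from each other.

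TGFB2, TGFBR2, SMAD7 and LTBP1 had too few PLATE-seq counts to be tested, so their counts are given. TGFBR2 had 2 and 0 counts in the control, 11 and 7 in clone 1, 0 and 21 in clone 2, 7 and 10 in clone 3, 0 and 7 with control siRNA and 10 and 2 with siRNA against SMARCAL1. In clone 1, where TGFBR2 rose in TruSeq, the ratio of PLATE-seq levels to the control was 4.38 (exact 95% interval 1.05 to 38.9, counting error only). The ratio was 9.27 (2.27 to 81.5) in clone 2, all from 1 of its libraries, and 2.62 (0.623 to 23.4) in clone 3. The control summed to 2 counts, under the floor of 3, so the size of these ratios is not settled. TGFB2 had 0 and 0 counts in the control, 3 and 4 in clone 1, 5 and 3 in clone 2 and 0 and 7 in clone 3. At 1.78 to 5.20 CPM in clones 1 and 2, these TGFB2 levels are at or near the floor of the control libraries, so no fold is given. Both siRNA controls had more TGFB2 counts, 7 and 2, than the siRNA-treated libraries, 1 and 0. LTBP1 had 0 and 4 counts in the control and 10 and 9 in clone 1, a ratio of 2.31 (0.768 to 9.34), so a difference was not detectable at this depth. SMAD7 had 0 to 4 counts in all 12 libraries.

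Around the 10 genes, 123 other gene symbols of the pathway were listed by role, with older and newer names of a gene counted apart. The TruSeq table held 121 of them, of which 95 were tested. Clone 1 had 20 of them higher and 7 lower, or 28.4% called where 6.27% of all genes were called, and their median log2 fold change was 0.14. The lists were chosen with earlier results of these data known, so these shares are not a test of the pathway. The basal epithelial markers, 8 in number, also summed to more in clone 1, 341 to 383 CPM against 207 to 233 CPM in controls. Nearly all of the sum came from EGFR, at 128 to 186 CPM over the TruSeq libraries, ITGB4, at 58.9 to 148 CPM, and KRT17, at up to 49.1 CPM. KRT5 and KRT6A were at 0.742 CPM or below in every library, and KRT14, KRT16 and TP63 at 1.13 CPM or below. Luminal epithelial markers, 9 in number, summed to 1120 to 1447 CPM in clone 1 against 1306 to 1735 CPM in controls, which overlap. Leukocyte markers, 7 in number, summed to 23.3 to 25.8 CPM against 30.4 to 34.3. Their part in these results was not tested.

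Of 10 factors that hold or release latent ligand, 5 rose and none fell, where 3.96% of all genes tested rose and 2.31% fell. The same shares stand beside the list counts that follow. ITGB8, the integrin beta subunit that with ITGAV frees TGF-beta from its latent complex, went from 3.47 ± 0.842 to 17.2 ± 3.38 CPM (SD, n = 3), a log2 fold change of 2.32 (SE 0.21, edgeR adjusted p = 0.000747). ITGAV itself rose by 0.44 (SE 0.06) and ITGB1 by 0.49 (SE 0.10). THBS1, a matrix protein that activates latent TGF-beta, went from 60.0 ± 4.75 to 109.2 ± 5.30 CPM, and FBN1, a fibril protein that anchors latent complexes, from 76.5 ± 4.94 to 127.4 ± 12.3 CPM (SD, n = 3). Of 6 other ligand genes tested, BMP7 rose by 1.30 (SE 0.12) and BMP1, listed there by name although it is a protease, by 0.52 (SE 0.08). Of 6 extracellular antagonists tested, 2 fell and none rose. As a list they did not shift down, with a median log2 fold change of 0.02, and FST lay at 0.44 without passing. GREM1, which blocks bone morphogenetic proteins, went from 52.8 ± 5.31 to 23.2 ± 2.42 CPM (SD, n = 3), a log2 fold change of -1.19 (SE 0.11, edgeR adjusted p = 0.000747), and BMPER fell by 0.73 (SE 0.17).

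Of 10 other receptor genes tested, BMPR2 rose by 0.46 (SE 0.07) and the pseudoreceptor BAMBI by 0.97 (SE 0.18). None of 12 SMAD transducers and partners passed, although 5 had an unadjusted p under 0.05 in the edgeR test, as had 3538 of all 17371 genes tested. Of 17 negative regulators 3 rose, the ubiquitin ligases SMURF1 by 0.46 (SE 0.08) and NEDD4L by 0.29 (SE 0.06) and the SMAD-binding membrane protein LDLRAD4, a relative of PMEPA1, by 1.78 (SE 0.38). Of 35 target genes 8 rose and 5 fell. TGFBI, an extracellular matrix protein named for its induction by TGF-beta, went from 16.9 ± 2.17 to 48.2 ± 3.17 CPM (SD, n = 3), and WNT5A from 24.3 ± 1.53 to 54.3 ± 4.86. CDKN1A, PDGFB, ZEB1, COL4A1, TWIST1 and TPM1 also rose, by 0.34 to 1.16 with WNT5A. Other induced targets moved down. ADAM19, a membrane protease, went from 33.9 ± 5.23 to 11.5 ± 0.778 CPM (SD, n = 3), and FN1, IL11, CYR61 and MYC, of which MYC is known as a gene that TGF-beta represses, also fell.

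**Figure D5:**
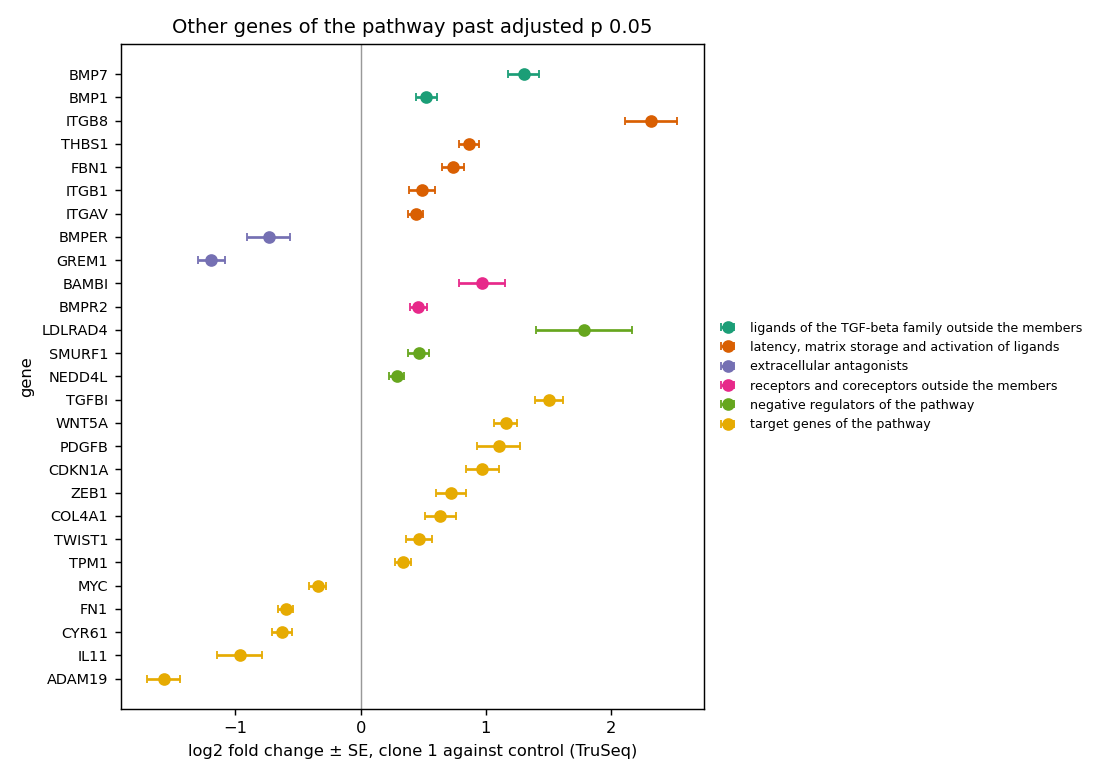
Log2 fold change ± SE in TruSeq clone 1 of the 27 other pathway genes past edgeR adjusted p 0.05, coloured by list. Genes of ligand release lie on the positive side and target genes on either side. The 2 extracellular antagonists that passed, of 6 tested, lie on the negative side.

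These calls varied in how much they rested on single libraries. Of the 27, 9 passed in each of the 6 omissions of 1 library, namely BMP7, FBN1, THBS1, ITGB8, GREM1, TGFBI, FN1, ADAM19 and WNT5A. Without control replicate 2 only 9 of the 27 passed, and TWIST1 passed in none of the omissions. No gene changed sign. In PLATE-seq 67 of the 121 listed genes found were tested, and apart from FST in clone 3 none passed in any comparison of a target with its control.

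The genes whose levels followed PMEPA1 most closely were ranked by the smaller of their Pearson correlations over the 6 TruSeq and the 12 PLATE-seq libraries, among 8177 genes tested in both. UBE2Q1, a ubiquitin-conjugating enzyme, came first with 0.885, followed by the adaptor SHC1 with 0.842, CAB39L with 0.832, S100A4 with 0.817 and TP53I11 with 0.805. These libraries share groups, so genes that differ between the same groups correlate. S100A4, a calcium-binding protein of mesenchymal cells, rose in TruSeq clone 1 by 0.97 (edgeR adjusted p = 0.00377). UBE2Q1 and TP53I11 passed in PLATE-seq clone 3, by 1.97 (adjusted p = 0.0264) and 2.52 (adjusted p = 0.0318). In TruSeq clone 1 the log2 fold change was 0.11 for UBE2Q1 (edgeR adjusted p = 0.362) and 0.25 for TP53I11 (0.228). It was 0.20 for SHC1 (0.105) and 0.35 for CAB39L (0.0922), so none of these passed there. SHC1, CAB39L and S100A4 passed in no PLATE-seq comparison with a control.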

How the data were processed

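Gene-level RNA counts of 18 libraries in 8 groups were analysed. The authors deposited raw counts per gene symbol. The submitters' processing notes list hg38, STAR and HTSeq; versions, annotation release and strand setting are not given in the sources used here. Spike-in entries, 92 in the PLATE-seq table and at most 0.0534% of a library, did not enter totals or fits. Each assay was fitted alone with edgeR 4.0.16 (R 4.3.3): filterByExpr, TMM scaling, quasi-likelihood F test, group as the only term, two-sided p-values adjusted by Benjamini-Hochberg over all 17371 (TruSeq) or 8595 (PLATE-seq) genes tested, threshold 0.05. The 12 PLATE-seq libraries shared 1 fit. Dispersion, as a biological coefficient of variation, came to 0.123 (TruSeq) and 0.330 (PLATE-seq). A standard error is the absolute log2 change over the root of F. CPM use TMM library sizes. "Rose" and "fell" mark genes past the threshold. Intervals are exact binomial (Clopper-Pearson) at 95%, and like the floor of 3 counts cover counting error only.

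Coordinates and exon lengths are from GENCODE 29 on GRCh38 by symbol, and promoters from RefSeq, where all 10 genes matched. The steps were tested on simulated data with known changes. Changes of 2-fold were called for 69 of 92 genes tested in TruSeq clone 1 and for 6 of 98 in PLATE-seq clone 3. Changes of 4-fold were called for 95 of 97 and for 48 of 95. A gene that did not pass in PLATE-seq is therefore not shown to be unchanged. The genes and lists were chosen with earlier results of these data known. Named were the 10 genes in every comparison, listed pathway genes past the threshold, and the 5 genes most like PMEPA1; NKILA was added after its values were seen. Alternatives were DESeq2 1.42.0, RLE scaling, no filter on low counts, a replicate block, fits of the compared groups only, the siRNA control as control, both sides of the TruSeq split, and omission of each library.

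Same-numbered libraries were checked for pairing, since spike-ins split PLATE-seq by number. Their deviations correlated at -0.0579 to 0.0556 in PLATE-seq and at -0.273, 0.376 and 0.575 in TruSeq. TruSeq libraries of different numbers correlated at -0.676 to 0.571, with a median of -0.248 against 0.376 for the same number. On so few libraries the TruSeq values do not settle whether the numbers are pairs. The main fits did not use them as pairs, and the replicate block is given as an alternative.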

Additional observations from a re-analysis of the deposited data

Results flagged for a closer look

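Some genes lay on opposite sides of their controls in different PLATE-seq groups, with both libraries of a group on the same side of both controls. Groups that did not overlap were common in this assay, at 37.4% to 42% of all genes tested in the comparisons of the clones and the siRNA with their controls. INHBA lay above the control in clones 1 and 2 and below it in clone 3. The difference between clone 1 and clone 3 was 3.20 on the log2 scale (SE 0.74, edgeR adjusted p = 0.0490) and that between clone 2 and clone 3 was 3.15 (SE 0.75, adjusted p = 0.0457). INHBA lay above its control with siRNA against SMARCAL1, and the clone 3 effect minus the siRNA effect was -2.81 (SE 1.10, adjusted p = 0.4499).

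SMAD3 lay above the control in each clone and below its control with siRNA. The clone effect minus the siRNA effect was 1.42 (SE 0.61, edgeR adjusted p = 0.637) for clone 1, 1.23 (SE 0.63, adjusted p = 0.618) for clone 2 and 1.86 (SE 0.61, adjusted p = 0.339) for clone 3. TGFBR1 lay below the control in clones 1 and 2 and above its control with siRNA, with differences of -1.44 (SE 0.98, edgeR adjusted p = 0.777) and -2.77 (SE 1.06, adjusted p = 0.436). None of these SMAD3 and TGFBR1 differences passed the test.

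TGFB2 lay above the control in clones 1 and 2 and below its control with siRNA, on 0 counts in the control of the clones and 1 count in the siRNA-treated libraries. That difference was not tested, since TGFB2 did not pass the filter on low counts in this assay.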

How the results depend on the processing

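INHBA, PMEPA1 and TGFBR2 in TruSeq kept their calls in each of the 6 omissions of 1 library, with log2 fold changes of 2.10 to 2.34, 0.92 to 1.13 and 0.89 to 0.97. With 2 libraries a group PLATE-seq calls rest on single libraries, and the causes of the changes below were not tested. Omitting 1 library gave 199 to 1145 called genes in TruSeq (3 to 4 of the 10 genes) where all libraries gave 1089. In PLATE-seq it gave 0 to 7 genes in clone 1 (main 0), 3 to 13 in clone 2 (main 3), 7 to 131 in clone 3 (main 57), 5 to 52 for the mean of the clones (main 17), 0 to 2 for siRNA (main 0), 0 to 4 between the control groups (main 1), 0 to 15 for the difference between knockout and siRNA (main 0) and 17 to 141 among the clones (main 61). Of the 10 genes it left 0 to 1 called in clone 3, for the mean of the clones and among the clones.

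Other settings moved the counts too. In TruSeq the replicate block gave 2387 genes, the side of the split as a factor 3793 and the libraries with fewer detected genes alone 2517. Without a filter PLATE-seq gave 36, 61 and 156 genes in clones 1 to 3, 83 for their mean, 22 for siRNA, 35 between controls, 44 for the knockout against siRNA difference and 230 among clones. DESeq2 gave 16, 31, 111, 43, 2, 5, 19 and 167 in the same order. Fits of the compared groups only gave 1 in clone 2, 3 in clone 3, 1 for siRNA, 0 between controls and 39 among clones, and the block gave 2 for the knockout against siRNA difference. With the siRNA control as control, clones 1 to 3 gave 7, 13 and 24. Of the 10 genes, clone 2 called 1 (PMEPA1) without a filter or with DESeq2; clone 3 called 0 with the compared groups only or the siRNA control; the mean of the clones called 0 with the siRNA control; and the difference among clones called 1 (INHBA) without a filter, with the replicate block, with DESeq2 and with the compared groups only. The block changed no other call among the 10.

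The directions that turned belong to comparisons in which that gene did not pass the test, among them 3 PLATE-seq comparisons of INHBA. In TruSeq, TGFB1 was -0.018 with the split as a factor and -0.061 in the libraries with more detected genes, where TGFBR1 was -0.029 and LTBP1 -0.0026, and SMAD7 was 0.011 without a filter. Over single omissions TGFB1 ran from -0.067 to 0.19, SMAD7 from -0.14 to 0.19 and SMARCAL1 from -0.11 to 0.011. With the siRNA control as control, clone 1 gave TGFB1 0.34, TGFBR1 0.42, SMAD3 -0.32 and SKIL 0.33; clone 2 TGFB1 0.42 and SMAD3 -0.51; clone 3 TGFB1 0.56; and the mean TGFB1 0.44, TGFBR1 0.23, SMAD3 -0.24 and SKIL 0.13. Over single omissions in clone 1, TGFB1 ran from -0.67 to 0.30 and SKIL from -1.10 to 0.83; in clone 2, from -0.61 to 0.37 and -0.26 to 1.67; in clone 3, TGFB1 from -0.60 to 0.53 and TGFBR1 from -0.81 to 0.94. For the mean of the clones TGFB1 ran from -0.57 to 0.40, SKIL from -1.31 to 0.62 and INHBA from -0.13 to 1.18, and with siRNA TGFB1 ran from -0.028 to 0.88. Between controls SKIL ran from -1.43 to 0.50 and INHBA from -2.88 to 0.26. For the knockout against siRNA difference TGFB1 ran from -1.05 to 0.022, SKIL from -0.022 to 4.62 and INHBA from -2.94 to 0.21.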

Other observations

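The assays, which were scaled separately, ranked the same genes differently in their control libraries. TGFB2 was at 36.5 ± 1.94 CPM (SD, n = 3) in TruSeq controls and had 0 counts in both PLATE-seq controls, at totals of 890402 and 807861 counts. SKIL was at 52.8 ± 2.66 CPM in TruSeq controls and at 2.21 and 8.68 CPM in PLATE-seq controls, and TGFBR2 at 28.9 ± 1.57 CPM and at 2.21 and 0 CPM. INHBA went the other way, at 2.19 ± 0.416 CPM in TruSeq controls and at 15.5 and 6.20 CPM in PLATE-seq controls. In clone 1 INHBA was at 10.0 ± 1.11 CPM in TruSeq and at 41.0 and 19.1 CPM in PLATE-seq. Mitochondrially encoded messages were 0.259% to 0.762% of TruSeq counts and 21.0% to 30.5% of PLATE-seq counts.

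PDGFRA, 1 of the 8 fibroblast markers listed, was at 0.132 to 1.29 CPM in TruSeq. It reached 44.7 CPM in a PLATE-seq library of the siRNA control. Of the other markers on that list, COL1A2, DCN, LUM and PDGFRB had 0 counts in PLATE-seq and COL3A1 had 1. FAP reached 3.95 CPM there and COL1A1 23.1 CPM.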
